A study of Mus musculus with 6 samples.

Results

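The 9 genes *Ier2*, *Ier3*, *Ier5*, *Ier5l*, *Gadd45a*, *Gadd45b*, *Gadd45g*, *Csrnp1* and *Csrnp2* form 3 small families of early-response genes. They were chosen by gene name, with earlier results of these data known, and were found by gene identifier among the 47069 genes of the count table. The libraries were made from LβT2 cells, a single immortalized mouse gonadotrope line used at passage 14. All 6 libraries came from cells given 2 nM gonadotropin-releasing hormone (GnRH) over 40 min. The 3 fresh libraries came from cells lysed directly, and the 3 RNA-Best libraries from cells kept at 4°C in the preservative RNA-Best for at least 4 days before lysis. Every library thus carries the hormone, and no untreated library was analysed here, so the levels below are levels after GnRH and do not measure an induction. Separate cultures are not named in the labels as the source of the replicates, so p-values measure the spread between these libraries, which may be technical. In bulk samples, fewer cells that express a gene and less RNA per cell cannot be told apart.

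GnRH acts on gonadotropes through a G protein-coupled receptor that activates protein kinase C and the MAP kinases ERK, JNK and p38, and these kinases drive the transcription of early-response genes. The Ier (immediate early response) genes code for short-lived proteins. *Ier2*, *Ier5* and *Ier5l* share a related amino-terminal region, and *Ier5* links protein phosphatase 2A to the heat shock factor HSF1. *Ier3*, which has an unrelated sequence, acts on ERK signalling and cell survival. The Gadd45 (growth arrest and DNA damage inducible) genes code for small acidic proteins that bind PCNA and the kinase of mitotic entry, activate the kinase MAP3K4 upstream of p38 and JNK, and take part in active DNA demethylation. The Csrnp genes code for cysteine- and serine-rich nuclear proteins, and *Csrnp1* was first known as a gene induced by Axin1.

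The fresh libraries held from 14477304 to 47438746 counts, and the RNA-Best libraries from 4909418 to 11999363, so that every fresh library was deeper. A count of 0 allows a level of up to 0.0632 counts per 1000000 counts of the library (CPM) in the deepest library and 0.611 CPM in the shallowest, for counting error only. Of the 9 gonadotrope markers examined, 8 passed the filter on low counts, among them the GnRH receptor gene *Gnrhr* and the gonadotropin subunit genes *Cga* and *Lhb*, whereas *Fshb* had 0 counts in all libraries. Of these 8, *Gnrhr* was higher in RNA-Best (log2 0.43, edgeR adjusted p = 5.66e-11) and 4 were lower, *Cga* (-0.36, edgeR adjusted p = 7.56e-14), *Pitx1* (-0.22), *Nr5a1* (-0.21) and *Gata2* (-0.07). The counts of these 4 genes and of *Lhb* held parts of counts, so that their values are less certain. Of 8 markers of other pituitary cells, 7 did not pass the filter, with *Prl*, *Pou1f1* and *Sox2* at 0 counts. The exception was *Tshb*, which was higher in RNA-Best (log2 0.91, edgeR adjusted p = 0.00350), and the summed level of these 8 markers was 0.839 to 1.17 CPM in fresh and 1.43 to 2.39 CPM in RNA-Best libraries. Of 3 blood and vessel markers, *Ptprc* had 0 counts and *Hbb-bs* 1 count, and the vessel gene *Pecam1* averaged 42.4 CPM (SD 0.634) in the 3 fresh and 38.9 CPM (SD 1.63) in the 3 RNA-Best libraries (log2 -0.15, edgeR adjusted p = 0.0150), also with parts of counts. Whether these markers bear on the values below was not tested.

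Promoter sequences of RefSeq on GRCm38.p6 were searched for the sites of factors that act on early-response genes, from 250 bases before to 50 bases after each start site. The table held 11 such windows for 8 of the genes, 4 of them for *Csrnp1*, and *Ier2* had no entry. The printed windows are those of *Ier3* and *Gadd45a*, both lower in RNA-Best libraries in the comparison below, of the other Gadd45 genes for comparison, and the *Csrnp1* window that held AP-1 sites. Each runs 5′ to 3′ on the strand of its gene, and capitals mark the CCAAT box (CCAAT, or ATTGG on the other strand), the TATA box (TATAA, on the strand of the gene) and the AP-1 site (TGANTCA).
Ier3, chr17:35821463-35821762, plus strand: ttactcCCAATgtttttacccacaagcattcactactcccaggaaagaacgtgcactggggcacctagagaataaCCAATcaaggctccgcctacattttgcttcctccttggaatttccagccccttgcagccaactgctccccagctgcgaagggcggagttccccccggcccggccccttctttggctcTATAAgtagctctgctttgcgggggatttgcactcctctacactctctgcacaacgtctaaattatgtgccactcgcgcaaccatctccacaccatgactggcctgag
Gadd45a, chr6:67037358-67037657, minus strand: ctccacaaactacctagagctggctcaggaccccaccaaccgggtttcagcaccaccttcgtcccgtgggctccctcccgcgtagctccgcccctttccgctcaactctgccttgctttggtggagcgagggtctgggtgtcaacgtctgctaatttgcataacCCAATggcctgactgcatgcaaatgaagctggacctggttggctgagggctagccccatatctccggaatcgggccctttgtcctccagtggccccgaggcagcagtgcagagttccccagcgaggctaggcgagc
Gadd45b, chr10:80929841-80930140, plus strand: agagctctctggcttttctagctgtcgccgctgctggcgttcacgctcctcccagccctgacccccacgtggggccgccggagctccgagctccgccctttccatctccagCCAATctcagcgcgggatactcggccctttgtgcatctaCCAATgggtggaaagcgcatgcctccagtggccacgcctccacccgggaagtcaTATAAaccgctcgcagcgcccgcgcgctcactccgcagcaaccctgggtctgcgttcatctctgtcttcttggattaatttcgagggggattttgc
Gadd45g, chr13:51846425-51846724, plus strand: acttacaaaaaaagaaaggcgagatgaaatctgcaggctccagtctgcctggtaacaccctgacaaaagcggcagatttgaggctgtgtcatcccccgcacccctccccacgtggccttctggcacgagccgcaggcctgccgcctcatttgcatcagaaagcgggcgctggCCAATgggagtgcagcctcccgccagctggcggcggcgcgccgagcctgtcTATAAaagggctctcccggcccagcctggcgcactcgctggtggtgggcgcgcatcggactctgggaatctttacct
Csrnp1, chr9:119982974-119983273, minus strand: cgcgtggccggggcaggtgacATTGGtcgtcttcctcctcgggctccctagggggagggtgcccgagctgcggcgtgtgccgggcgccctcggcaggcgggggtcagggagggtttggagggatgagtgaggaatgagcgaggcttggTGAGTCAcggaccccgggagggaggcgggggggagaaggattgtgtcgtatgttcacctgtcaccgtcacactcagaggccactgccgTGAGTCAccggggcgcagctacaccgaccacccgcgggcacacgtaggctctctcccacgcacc

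The CCAAT box and the TATA box were chosen after these sequences had been seen. A CCAAT box stood in a window of 7 of the 8 genes, all but *Csrnp2*, and in 7 of the 11 windows, where 37.4% of 32851 mouse promoter windows held one. The sequence TATAA stood in windows of *Ier3*, *Ier5*, *Gadd45b*, *Gadd45g* and *Csrnp2*, and in 17.5% of all windows. Counted from 0 at the RefSeq start, its first base was at -27 in *Gadd45g* and -26 in *Ier5*, and at -58, -46 and -53 in *Ier3*, *Gadd45b* and *Csrnp2*. For *Ier3*, *Gadd45b* and *Csrnp2* the RefSeq start lies inside the gene body given below, so their distances depend on the start used. AP-1 sites were present in *Csrnp1* alone, in the window printed above, which held 2 copies of TGAGTCA with first bases at -102 and -14. This window lies inside the gene body given below, and the other windows of *Csrnp1*, the gene with the most windows, held no AP-1 site. Of all windows, 7.81% held an AP-1 site, and *Csrnp1* was also the only one of the genes with the short core of a cAMP response element (TGACG), which 20.8% of all windows held. The full cAMP response element (TGACGTCA, 1.79% of all windows), the EGR site (GCGGGGGCG, 2.91%), its variant (GCGTGGGCG, 0.612%) and the serum response element core (1.63%) were found in none of the 11 windows. All motifs but TATAA were searched on both strands, and a full cAMP response element also counts as its short core. A match describes letters in these windows only.

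The genes lie on 9 different chromosomes of GRCm38. *Ier2* (chr8:84661331-84662852), *Ier5* (chr1:155096361-155099636) and *Ier5l* (chr2:30471537-30474219) each have 1 exon in their longest transcript. *Ier3* (chr17:35821684-35822923) has 2 exons, and *Gadd45a* (chr6:67035096-67037457), *Gadd45b* (chr10:80930073-80932204) and *Gadd45g* (chr13:51846678-51848468) each have 4. *Csrnp1* (chr9:119971163-119984658) has 4 exons and *Csrnp2* (chr15:100479570-100495488) has 5. Exon length, the union of all annotated exons, ranged from 1131 bases in *Ier3* to 4375 bases in *Csrnp2*. *Gadd45a* shares 337 of its 1764 exon bases with the antisense gene *E230016M11Rik*, and *Csrnp1* shares 224 of its 3473 exon bases with the antisense gene *1700019L13Rik*, which was not analysed here. The strand setting of the counting is not given in the sources used here, so reads of these shared bases cannot be assigned with certainty. *E230016M11Rik* averaged 1.14 CPM (SD 0.144) in the 3 fresh and 1.46 CPM (SD 0.349) in the 3 RNA-Best libraries (log2 fold change 0.23, edgeR adjusted p = 0.501). *Cx3cr1* overlaps the body of *Csrnp1* on the same strand but shares 0 exon bases with it, and it had 2 counts in all libraries.

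The AU-rich pentamer ATTTA, a sequence element of many short-lived mRNAs, was counted in the 3′ untranslated region of the longest coding transcript, a choice made after the other results were known. *Ier3* held 5 pentamers in 613 bases, or 8.16 per kb, where the median of 12126 coding genes tested was 1.26 per kb and the 90th percentile 3.98. *Csrnp1* held 5 (4.65 per kb), *Gadd45a* 2 (3.55 per kb), *Csrnp2* 7 (3.13 per kb) and *Ier5l* 3 (2.39 per kb). *Ier5* held 2 (0.933 per kb), and *Ier2*, *Gadd45b* and *Gadd45g* held 0. The longer element TTATTTATT occurred in *Csrnp1* and *Csrnp2*, and in 8.39% of the coding genes. Both sites are shown with it in capitals, at bases 155 to 163 and 1348 to 1356 of the untranslated regions.
Csrnp1: ctctgaatTTATTTATTtttttatg
Csrnp2: ttatctatTTATTTATTtttggtga

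To rank the genes after GnRH, CPM was divided by exon length in kb. In fresh libraries *Ier2* stood far above the rest, at 47.8 ± 1.76 CPM per kb (SD, n = 3). *Gadd45a* followed at 5.06 ± 0.230 and *Ier3* at 4.83 ± 0.0776, then *Csrnp2* at 4.28 ± 0.199, *Ier5* at 4.23 ± 0.246 and *Csrnp1* at 3.13 ± 0.254 CPM per kb (SD, n = 3 each). The lowest levels per kb were those of *Gadd45b* (2.35 ± 0.171), *Ier5l* (2.11 ± 0.139) and *Gadd45g* (1.34 ± 0.171). Neighbours whose fresh libraries overlapped, and which therefore did not differ beyond their spread, were *Csrnp2* with *Ier5* and *Gadd45b* with *Ier5l*. *Gadd45a* and *Ier3* were apart by a margin inside counting error, with a lowest *Gadd45a* library of 4.909 and a highest *Ier3* library of 4.908 CPM per kb. In RNA-Best libraries *Ier2* was again first, at 39.6 ± 0.648 CPM per kb (SD, n = 3), and *Gadd45g* last, at 1.05 ± 0.389. Between them the order was *Csrnp2* (4.74), *Gadd45a* (3.80), *Ier5* (3.77), *Ier3* (3.20), *Csrnp1* (2.96), *Gadd45b* (2.19) and *Ier5l* (1.99), and each neighbouring pair in this stretch overlapped. *Ier3* was thus at rank 3 in fresh and rank 5 in RNA-Best libraries, within the spread of its RNA-Best neighbours.

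**Figure D1:**
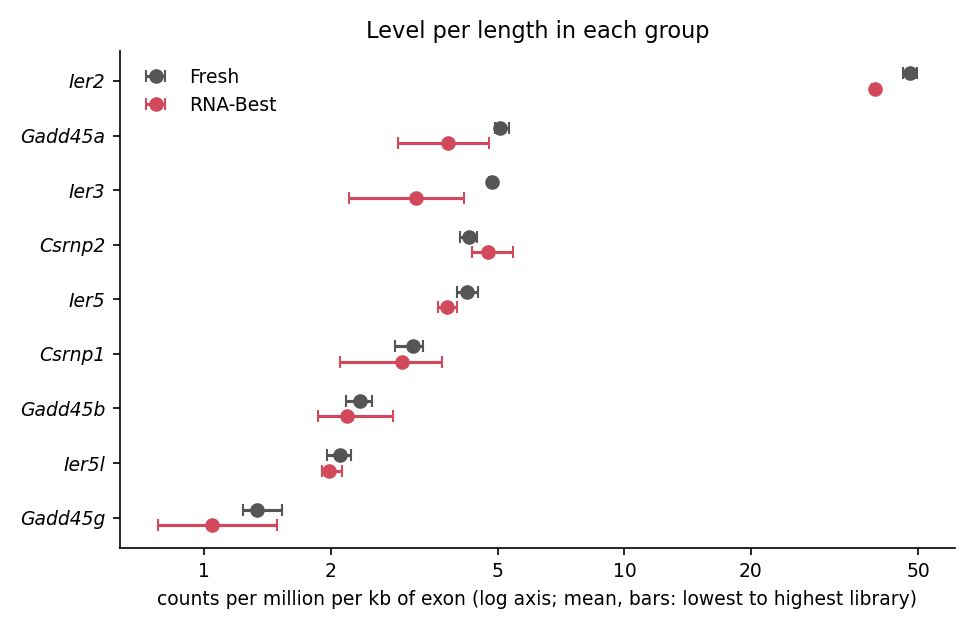
Level per exon length of each gene in CPM per kb (horizontal log axis), with points for the mean of 3 libraries and bars from the lowest to the highest library, fresh in grey and RNA-Best in red. *Ier2*, at 47.8 and 39.6, lies apart from the other genes, which lie between 1.05 and 5.06.

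Within the families the make-up was uneven in both groups. *Ier2* made up 81.1% ± 0.576 of the summed per-kb level of the Ier genes when fresh and 81.5% ± 1.71 after RNA-Best (SD, n = 3 each). *Gadd45a* gave 57.9% ± 3.09 of the Gadd45 sum when fresh and 53.7% ± 8.48 after RNA-Best, and *Csrnp2* gave 57.7% ± 2.94 and 62.0% ± 5.19 of the Csrnp sum (SD, n = 3 each). In each of these 3 shares the libraries of the groups overlapped. The smaller share of *Ier5* was 6.82% to 7.38% when fresh and 7.41% to 8.31% after RNA-Best, without overlap. That of *Ier5l* was 3.21% to 3.80% and 3.95% to 4.37%, also without overlap, whereas the shares of the other genes overlapped.

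The question of the comparison was whether preservation in RNA-Best kept the level of these transcripts. *Ier2*, *Ier3* and *Gadd45a* were lower in RNA-Best than in fresh libraries, by 0.27, 0.67 and 0.31 on the log2 scale of edgeR. The other 6 genes did not pass the test, with log2 fold changes from -0.28 in *Gadd45g* to 0.15 in *Csrnp2*, the only value above 0. These 3 calls among 9 genes are 33.3%, beside 50.8% of the 14736 genes tested over the whole table (edgeR's quasi-likelihood test, Benjamini-Hochberg adjusted p under 0.05). In the lower direction 24.8% of all genes tested were called, and in the higher direction 26.0%. The median log2 fold change of the 9 genes was -0.23, and that of all genes tested was -0.01.

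**Figure D2:**
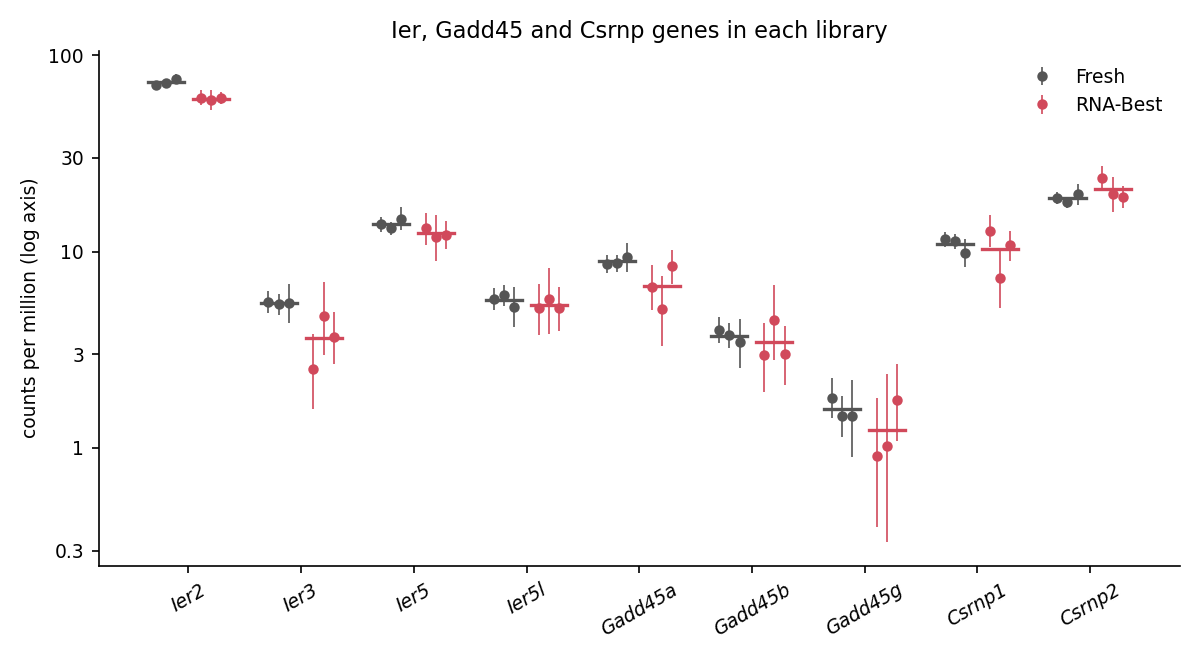
CPM of each gene in each library (vertical log axis). Each point is 1 library with its exact 95% binomial (Clopper-Pearson) interval for counting error, and the horizontal line is the mean of the 3 libraries; fresh is grey and RNA-Best red. The red points lie below all grey points in *Ier2*, *Ier3*, *Ier5* and *Gadd45a*, in *Ier5* by a very small margin.

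*Ier2*, the most abundant of the genes, had 70.1, 72.6 and 75.5 CPM in fresh libraries 1, 2 and 3, and 60.9, 59.1 and 60.7 CPM in RNA-Best libraries 1, 2 and 3. The groups did not overlap, and the RNA-Best libraries lay within a narrow range. Its fold change was 0.828 (log2 -0.27, standard error 0.04, edgeR adjusted p = 3.37e-06). With an offset for exon length it was -0.16 on the log2 scale (edgeR adjusted p = 0.00324), and with an offset for GC content -0.15 (edgeR adjusted p = 0.00353).

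*Ier3* showed the lowest log2 fold change of the 9. It had 5.55, 5.38 and 5.46 CPM in the fresh libraries and 2.51, 4.68 and 3.67 CPM in the RNA-Best libraries. The fresh libraries were close together, and the RNA-Best libraries were spread out and all lower, the first most of all. Its fold change was 0.63 (log2 -0.67, standard error 0.15, edgeR adjusted p = 0.000448), with a 95% interval of the log2 value from -0.98 to -0.35. The RNA-Best values rest on 22, 23 and 44 counts, and the exact 95% binomial (Clopper-Pearson) interval of the first, 1.57 to 3.80 CPM, overlaps that of the second, 2.97 to 7.03 CPM. When all libraries were thinned to the depth of the shallowest, *Ier3* no longer passed (log2 -0.48, edgeR adjusted p = 0.104). The thinning was a single random draw, so this and the other thinned values below also hold the error of that draw.

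*Ier5* had 13.7, 13.1 and 14.7 CPM in fresh and 13.1, 11.8 and 12.2 CPM in RNA-Best libraries. The groups touched without overlapping, and the log2 fold change of -0.15 did not pass (edgeR adjusted p = 0.171), with a 95% interval from -0.32 to 0.03. Its relative *Ier5l* had 5.72, 5.99 and 5.25 CPM in fresh and 5.13, 5.70 and 5.17 CPM in RNA-Best libraries, with groups that overlapped. The log2 fold change of *Ier5l* was also -0.15 (edgeR adjusted p = 0.367), with a wider interval from -0.41 to 0.11. It was -0.09 with the offset for exon length and -0.06 with that for GC content.

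*Gadd45a*, the Gadd45 gene known as a target of p53, had 8.66, 8.73 and 9.39 CPM in fresh and 6.61, 5.09 and 8.42 CPM in RNA-Best libraries. All RNA-Best libraries were lower than all fresh ones, with the third RNA-Best library close to the fresh range. Its log2 fold change was -0.31 (standard error 0.12, edgeR adjusted p = 0.0266), with a 95% interval from -0.55 to -0.07. The call was lost with the exon length offset (log2 -0.21, edgeR adjusted p = 0.157), in the Wald test of DESeq2 (log2 -0.35, adjusted p = 0.0748), without RNA-Best replicate 1 (log2 -0.26, edgeR adjusted p = 0.145) and without RNA-Best replicate 2 (log2 -0.22, edgeR adjusted p = 0.155), whereas without RNA-Best replicate 3 the value was -0.55 (edgeR adjusted p = 0.00375). Thinned to the depth of the shallowest library in the same random draw, it was -0.69 (edgeR adjusted p = 0.00239).

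*Gadd45b*, which is induced by TGF-β and NF-κB signalling in other cells, had 4.00, 3.75 and 3.45 CPM in fresh and 2.96, 4.48 and 3.0 CPM in RNA-Best libraries. The second RNA-Best library was above every fresh library and the other two were below, so that the groups overlapped. Its log2 fold change was -0.23 (edgeR adjusted p = 0.256), with a 95% interval from -0.56 to 0.10. The value was -0.12 with the exon length offset, -0.15 with the GC offset and 0.12 when thinned to the depth of the shallowest library. *Gadd45g*, the gene of this family with the lowest level, had 1.80, 1.45 and 1.45 CPM in fresh libraries and 0.912, 1.02 and 1.75 CPM in RNA-Best libraries. These RNA-Best values were only 8, 5 and 21 counts, and the interval of the log2 fold change, -0.79 to 0.24 around -0.28, was the widest of the 9 (edgeR adjusted p = 0.394). Single libraries moved it from -0.06 without RNA-Best replicate 1 to -0.75 without RNA-Best replicate 3, and it was -0.15 with the exon length offset and without fresh replicate 1.

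*Csrnp1* had 11.5, 11.3 and 9.88 CPM in fresh and 12.8, 7.33 and 10.8 CPM in RNA-Best libraries, which spanned more than the whole fresh range. Its log2 fold change was -0.06 (edgeR adjusted p = 0.656, 95% interval -0.28 to 0.16), and it was 0.05 without RNA-Best replicate 2, 0.02 with an offset for GC content, -0.21 without RNA-Best replicate 1 and -0.35 when thinned to the depth of the shallowest library (edgeR adjusted p = 0.0789). *Csrnp2*, the longest of the genes, had 18.8, 17.8 and 19.5 CPM in fresh and 23.7, 19.6 and 19.0 CPM in RNA-Best libraries. Only the first RNA-Best library stood clearly above the fresh range. The log2 fold change was 0.15 (edgeR adjusted p = 0.102), with a 95% interval from -0.01 to 0.31. It passed without RNA-Best replicate 3 (0.25, edgeR adjusted p = 0.0310) and with the GC offset (0.19, edgeR adjusted p = 0.0378), was 0.26 when thinned (edgeR adjusted p = 0.0834), and was 0.04 without RNA-Best replicate 1 (edgeR adjusted p = 0.750).

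**Figure D3:**
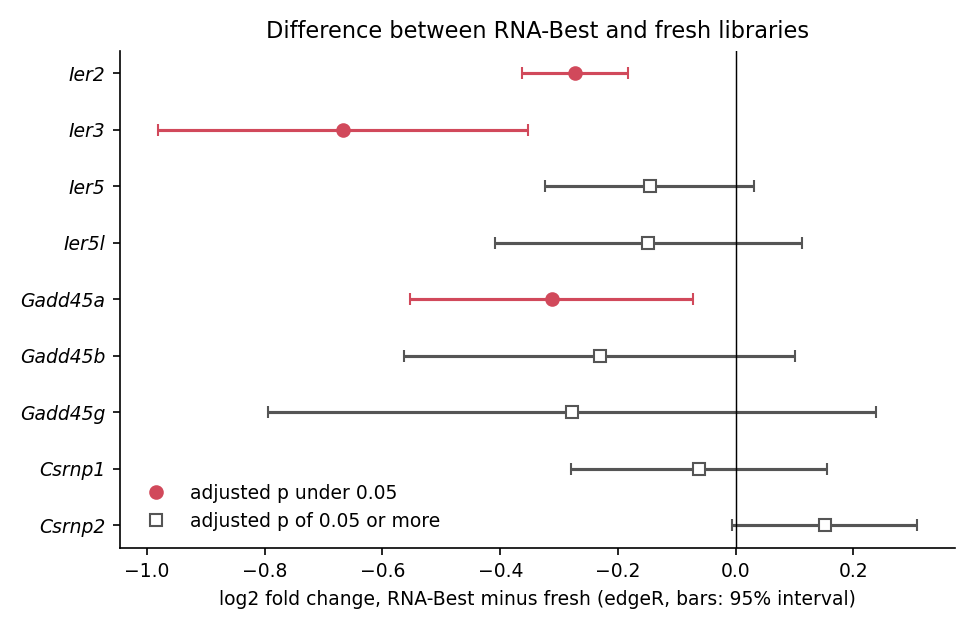
Log2 fold change of each gene, RNA-Best minus fresh (horizontal axis), with its 95% interval from edgeR. Filled red circles mark adjusted p under 0.05 and open grey squares the others. The intervals of *Ier2*, *Ier3* and *Gadd45a* lie below 0, and *Gadd45g* has the widest, from -0.79 to 0.24.

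**Figure D4:**
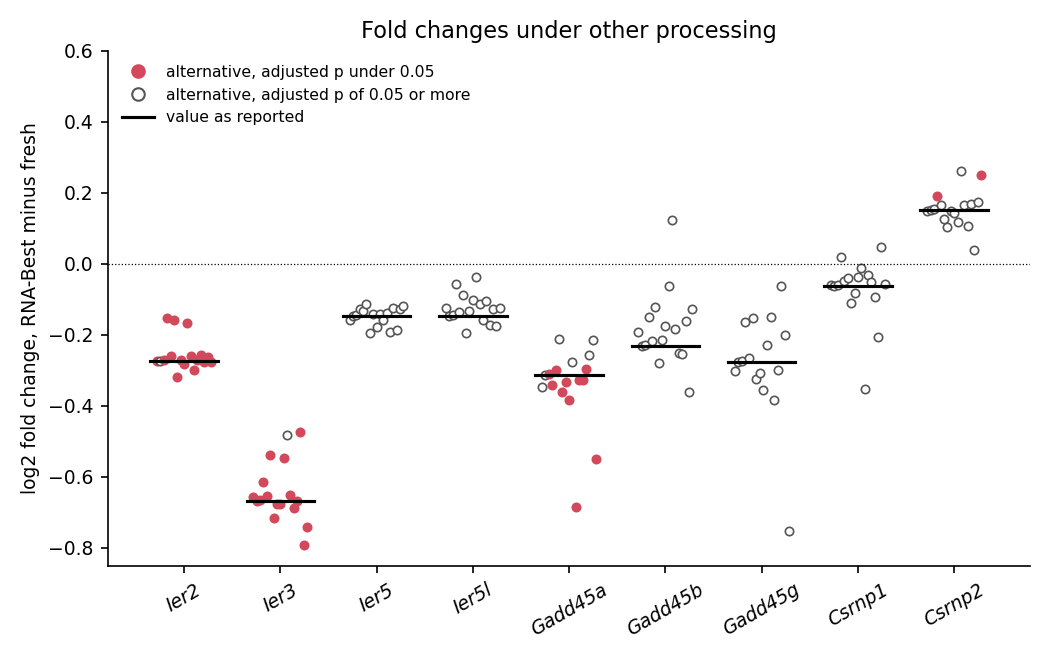
Log2 fold change of each gene, RNA-Best minus fresh (vertical axis), as reported (black line) and under each of the other settings (points, filled red where adjusted p is under 0.05). *Ier2* and *Ier3* lie below 0 under every setting, and *Gadd45a* does too but is open under 6 of 17.

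In 4 of the 9 genes, *Ier2*, *Ier3*, *Ier5* and *Gadd45a*, the groups of libraries did not overlap, whereas 57.5% of all genes tested had groups without overlap, with every RNA-Best library lower in 27.1% and higher in 30.4%. Against a minimum change of 1.2-fold (edgeR's glmTreat), *Ier3* alone of the 9 passed (adjusted p = 0.0182), where 11.5% of all genes tested did.

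Exon length moved with the fold change over the whole table, with a Spearman correlation of 0.522 over 14689 genes, which share the same 6 libraries. Genes of 1 to 2 kb, the class of *Ier2*, *Ier3* and the Gadd45 genes, had a median log2 fold change of -0.18, and 44.9% of them were called lower. Genes of 2 to 4 kb, the class of *Ier5*, *Ier5l* and *Csrnp1*, had a median of -0.10, and genes over 4 kb, with *Csrnp2*, a median of 0.12. With an offset for exon length, 2 of the 9 genes were called, *Ier2* and *Ier3* (log2 -0.54, edgeR adjusted p = 0.00578), beside 40.6% of all genes tested. The part of length in the values of the single genes was not tested beyond this offset. Every RNA-Best library was shallower than every fresh one. Thinned to equal depth in that random draw, *Ier2* was at -0.26 (edgeR adjusted p = 0.000959), beside the values of *Ier3* and *Gadd45a* above.

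**Figure D5:**
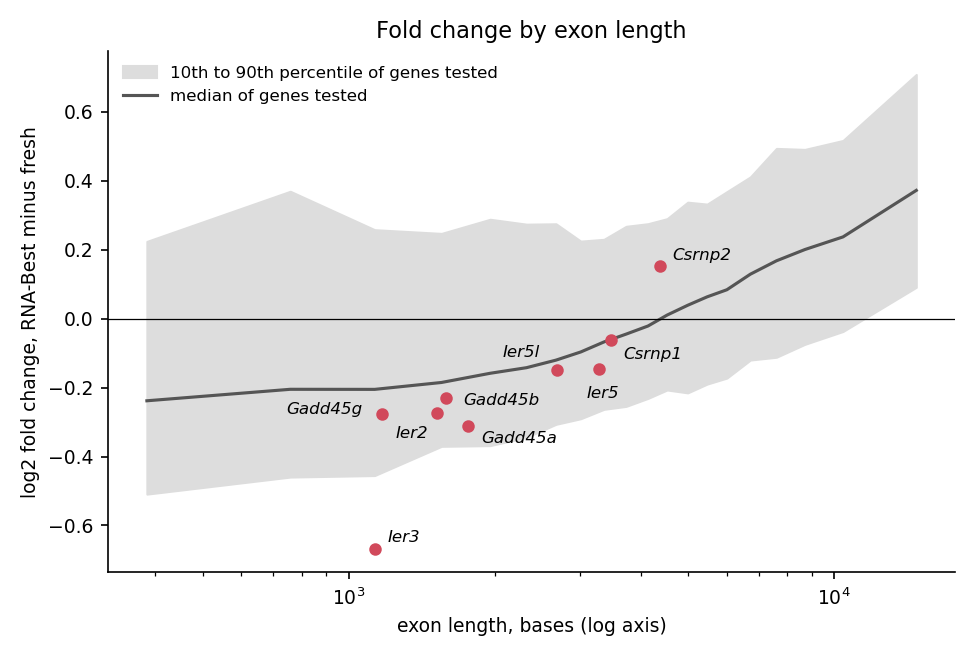
Log2 fold change, RNA-Best minus fresh (vertical axis), against exon length in bases (horizontal log axis). Grey shows the median and the 10th to 90th percentile of the genes tested in bins of length, and red points the 9 genes. *Ier3*, at -0.67, lies below the grey band, and the others lie within it.

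Ratios of family members within a library do not depend on the scaling between libraries, and 10 pairs were compared. The log2 ratio of *Ier3* to *Ier5l* was -0.05 ± 0.11 when fresh and -0.60 ± 0.39 after RNA-Best (SD, n = 3 each), a difference of -0.56 without overlap of the groups (exact permutation test, two-sided, p = 0.1, adjusted p = 0.333 over the 10 pairs). That of *Ier2* to *Ier5* was 2.39 ± 0.07 and 2.29 ± 0.06, and that of *Ier2* to *Ier5l* 3.69 ± 0.14 and 3.50 ± 0.11, again without overlap (exact permutation tests, two-sided, p = 0.1 and adjusted p = 0.333 each). With 3 libraries against 3, a p of 0.1 is the smallest possible, so no pair could pass. Without RNA-Best replicate 1 the difference for *Ier3* to *Ier5l* was -0.34, without fresh replicate 3 that for *Ier2* to *Ier5l* was -0.11, and without fresh replicate 2 that for *Ier2* to *Ier5* was -0.07. In the other 7 pairs the groups overlapped. For *Gadd45a* to *Gadd45b* the log2 ratio was 1.26 ± 0.17 when fresh and 0.94 ± 0.68 after RNA-Best, and for *Csrnp1* to *Csrnp2* -0.78 ± 0.17 and -1.04 ± 0.32 (SD, n = 3 each), a difference of -0.26 that was -0.07 without RNA-Best replicate 2.

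Partners of the 3 families were examined as lists. Of 19 genes that act with Gadd45 proteins, 9 were higher and 5 lower in RNA-Best, and 5 did not pass (edgeR, median log2 fold change 0.08). The 14 calls are 73.7% of the list, beside 50.8% of all genes tested. The highest values were those of the DNA demethylation enzymes *Tet2* (0.90, edgeR adjusted p = 4.27e-11) and *Tet1* (0.86, edgeR adjusted p = 7.09e-06), whose exon lengths are 16870 and 15457 bases. The lowest were those of *Gadd45gip1*, which codes for a Gadd45-binding mitochondrial protein (-0.28, edgeR adjusted p = 0.0451), and the cell cycle inhibitor gene *Cdkn1a* (-0.27, edgeR adjusted p = 5.83e-07). With the length offset 8 genes of this list were called in place of 14, beside 40.6% of all genes tested. *Cdkn1a* averaged 128 CPM (SD 6.01) in the 3 fresh and 106 CPM (SD 5.18) in the 3 RNA-Best libraries, without overlap, whereas the libraries of *Gadd45gip1* overlapped.

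Of 12 partners of the Ier proteins, 1 was higher, 6 were lower and 5 did not pass (edgeR, median log2 fold change -0.07). The 7 calls are 58.3% of the list, a share near the 50.8% of all genes tested. With the length offset 8 genes of this list were called, beside 40.6% of all genes tested. The genes of both scaffold subunits of protein phosphatase 2A had values of opposite sign. *Ppp2r1b* was at 0.14 (edgeR adjusted p = 0.00418) and *Ppp2r1a* at -0.26 (edgeR adjusted p = 3.87e-09). The shift fitted from exon length over all genes was 0.13 for *Ppp2r1b* (6449 bases) and -0.03 for *Ppp2r1a* (3411 bases). The part of length in these values was not tested further. *Hsf1*, which codes for the main activator of heat shock genes, was at -0.23 (edgeR adjusted p = 2.07e-05), and the survival gene *Mcl1* at 0.06 (edgeR adjusted p = 0.258). Of the Csrnp list, *Axin1* was at -0.03 (edgeR adjusted p = 0.473), and the third family member *Csrnp3* had 2 counts in all libraries and was not tested. Among the partners, parts of counts were also present in *Tet2*, *Ppp2r1a*, *Hsf1*, *Mcl1* and, among the genes below, *Jund* and *Nfkbia*, so that their values are less certain, and in none of the 9 early-response genes.

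Of 45 other early-response genes, 42 passed the filter on low counts. In RNA-Best, 7 of them were higher and 15 lower, and 20 did not pass, with a median log2 fold change of -0.06, beside -0.23 for the 9 genes. Exon lengths differ between this list and the 9 genes, and these medians are not adjusted for length. The 22 calls are 52.4% of the genes tested on this list, near the 50.8% of all genes tested. The highest values were those of the transcription factor genes *Egr3* (0.49, edgeR adjusted p = 2.99e-12) and *Nr4a2* (0.48, edgeR adjusted p = 0.0147) and of *Trib1* (0.38, edgeR adjusted p = 0.283), which codes for a pseudokinase. The lowest were those of the MAP kinase phosphatase gene *Dusp2* (-0.42, edgeR adjusted p = 0.0123), the NF-κB inhibitor gene *Nfkbia* (-0.33, edgeR adjusted p = 9.91e-07) and the AP-1 subunit gene *Jund* (-0.32, edgeR adjusted p = 3.89e-09). With the length offset 13 of the 42 were called in place of 22, beside 40.6% of all genes tested.

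The genes whose pattern over the 6 libraries was most like that of each early-response gene were found by Pearson correlation of log2(CPM + 0.5). For *Ier2* this was *Tmem205* (r = 0.999), and 1147 genes had r over 0.95. For *Ier3* it was *Llph* (r = 0.998), for *Ier5* *Pdcl3* (r = 0.996) and for *Ier5l* *Calb1* (r = 0.986). For *Gadd45a* it was *Ephb4* (r = 0.994), for *Gadd45b* *Gm6382* (r = 0.985), for *Gadd45g* *Plcl2* (r = 0.993), for *Csrnp1* *Gm14308* (r = 0.996) and for *Csrnp2* *Nckap5los* (r = 0.984). No gene of the 3 families was the closest gene of another. From 12 genes for *Ier5l* to 160 for *Gadd45a* exceeded r of 0.95 among the genes other than *Ier2*. With 6 libraries in 2 groups and 14735 genes compared for each, such values describe these libraries only.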

How the data were processed

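The bulk RNA-seq libraries were sequenced as single reads. Per the labels and the methods of the study, the authors aligned reads to GRCm38 (mm10) with STAR 2.5.1b and counted them per gene with featureCounts 1.5.0-p1, and they added spike-ins, which were not analysed here. The authors deposited estimated counts for each gene without scaling to library size. At a tolerance of 0.001, 9.36% to 16.3% of them per library were not whole. Counts were rounded for the count models. Depth ranged from 4909418 to 47438746 counts, and the binomial intervals of single CPM values cover counting error only, whereas those of log2 fold changes come from the edgeR fit and include the spread between libraries.

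RNA-Best was compared with fresh over all genes in R 4.3.3 with the quasi-likelihood test of edgeR 4.0.16 (TMM, filterByExpr with a minimum count of 10, Benjamini-Hochberg adjustment, false discovery rate 5%). Limma voom (limma 3.58.1), the study's tool but used here on the adjusted p alone without the study's fold change threshold, and DESeq2 1.42.0 were alternatives, with other scalings, no filter, glmTreat, length and GC offsets (loess, span 0.5), thinning, a replicate block and leaving out single libraries. Thinning used a single random draw for each library. The edgeR script was tested on simulated data. CPM used column totals. Ratios used no pseudocount, with 0.5 counts as an alternative. Exact permutation tests used scipy 1.17.1. Exon lengths and positions came from GENCODE M21, later than the authors' annotation and on the same assembly, which matched 46574 genes. Chi-square values per gene were 1.82 to 2.21 between fresh libraries and 1.08 to 1.29 between RNA-Best libraries. The RNA-Best values lie near what counting error alone would give, so they cannot show that these libraries came from separate cultures. Each library was kept as its own replicate because the labels number it so.

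The 9 genes and the lists were chosen with earlier results of these data known. Named genes are the 9, the 2 highest and 2 lowest of the Gadd45 and Ier lists, both of the Csrnp list, the 3 highest and 3 lowest of the other early genes, the closest gene of each, and overlapping genes. Cell type markers are named beside this rule, from lists of their own. The other experiments of the study were not used here.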

Additional observations from a re-analysis of the deposited data

How the results depend on the processing

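Besides the values reported, 17 alternatives were run. *Ier2* was called in 16 of them and stayed below 0 in all 17 (log2 -0.32 to -0.15), the exception being glmTreat against 1.2-fold (-0.27, adjusted p = 0.745). *Ier3* was called in 16 and stayed below 0 in all 17 (-0.79 to -0.47), the exception being thinning (-0.48, edgeR adjusted p = 0.104). *Gadd45a* was called in 11, and the call was lost with DESeq2 (-0.35), glmTreat (-0.31, adjusted p = 0.575), the length offset (-0.21), the replicate block with the length offset (-0.28, edgeR adjusted p = 0.0614) and without RNA-Best replicates 1 and 2 (-0.26 and -0.22). *Csrnp2* gained a call with the GC offset (0.19) and without RNA-Best replicate 3 (0.25). Uncalled values changed sign for *Gadd45b* when thinned (0.12) and for *Csrnp1* with the GC offset (0.020) and without RNA-Best replicate 2 (0.047). The cause of these changes was not tested, and *Gadd45g* was not tested when thinned. Leaving out single libraries gave log2 ranges of -0.30 to -0.26 for *Ier2*, -0.79 to -0.47 for *Ier3*, -0.55 to -0.22 for *Gadd45a*, -0.36 to -0.13 for *Gadd45b*, -0.75 to -0.061 for *Gadd45g*, -0.21 to 0.047 for *Csrnp1*, 0.039 to 0.25 for *Csrnp2*, -0.19 to -0.12 for *Ier5* and -0.18 to -0.11 for *Ier5l*. With the replicate block and the length offset, *Ier5l* was at -0.038 and *Gadd45b* at -0.064. A group left with fewer libraries was assumed to vary like the other.

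The number of the 9 genes called was 1 with glmTreat and 2 to 4 in the other 16 alternatives, under which 28% (no filter) to 50.7% (replicate block) of all genes tested were called. With glmTreat, 3 genes of the Gadd45 list, 0 of the Ier list and 1 of the other early genes were called, beside 11.5% of all genes tested. Of the Ier list, 0 genes also had an unadjusted p under 0.05 there, whereas edgeR without a minimum change called 7. With the length offset, 8 of the Gadd45 list and 13 of the other early genes were called, and with the replicate block and the length offset 8 and 12, beside 40.6% and 40.4% of all genes tested. Same-numbered libraries showed correlations of -0.0087, 0.026 and -0.0031 between their deviations from the group means. Deviations of the RNA-Best libraries held mostly counting error, so these values cannot exclude a pairing, and the numbers are taken as names only. With the replicate block 3 of the 9 genes were called, *Ier2* at -0.28, *Ier3* at -0.68 and *Gadd45a* at -0.38, and 13 genes of the Gadd45 list, 8 of the Ier list and 22 of the other early genes, beside 50.7% of all genes tested. Without a filter on low counts the median log2 fold change of all genes was -0.06.

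Of the ranks by level per kb, 9 of 9 in fresh libraries were kept in each alternative. In RNA-Best libraries 5 of 9 were kept with the length of the longest transcript and 5 without RNA-Best replicate 2. Leaving out single libraries turned the difference in log2 ratio for *Ier5* to *Ier5l* (-0.16 to 0.016), *Gadd45a* to *Gadd45b* (-0.59 to 0.064), *Gadd45a* to *Gadd45g* (-0.22 to 0.075) and *Gadd45b* to *Gadd45g* (-0.017 to 0.66), none of which had groups apart. For the other pairs the ranges were -0.72 to -0.34 (*Ier3* to *Ier5l*), -0.23 to -0.11 (*Ier2* to *Ier5l*), -0.13 to -0.07 (*Ier2* to *Ier5*), 0.12 to 0.59 (*Ier2* to *Ier3*), -0.72 to -0.19 (*Ier3* to *Ier5*) and -0.37 to -0.07 (*Csrnp1* to *Csrnp2*). *Gadd45g* rests on the fewest counts, 5 to 21 in RNA-Best libraries.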
